A study of Bos taurus with 40 samples.

Results

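Carbachol was compared with saline in bovine tracheal smooth muscle strips held without cyclic stretch. The groups were taken from the sample titles, as unstretched strips in carbachol against unstretched strips in saline, which gave 20 of the 40 labelled samples of the series and 10 of its 20 RNA samples. Both groups held strips of the same 5 animals, so that each animal gave 1 treated and 1 control RNA. The control strips were kept in physiological salt solution (saline) with no drug, and the treated strips in the same solution with carbachol at 1 µM. No strip of either group was oscillated. The rest of the series repeats this pair of groups in strips oscillated by 10% of muscle length at 1 Hz.

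The tissue came from slaughterhouse animals. For strain, age and duration of treatment, nothing is given in the sources used here. The label's account of the dissection has the muscle layer excised together with adventitia and mucosa, and its next words are missing from the text at hand. The strips are intact tissue, so that fewer cells of a type and less RNA per cell cannot be told apart. Of 22 markers fixed for smooth muscle, epithelium, fibroblasts, endothelium, leukocytes and cartilage, 0 carried a name on the array annotation, and the tissue label was therefore not checked against markers.

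Carbachol is a stable analogue of acetylcholine, the transmitter that parasympathetic nerves release onto airway smooth muscle. It binds muscarinic receptors, which couple through G proteins to phospholipase C, calcium release and protein kinase C and to inhibition of adenylyl cyclase, and the muscle contracts. Contractile force passes to the extracellular matrix through integrins, receptors built of an alpha and a beta subunit, and kinase cascades downstream of muscarinic receptors and integrins are known to act on gene expression in this tissue. The series title names inflammatory gene expression as its subject.

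Every RNA had 1 Cy3 and 1 Cy5 labelling, read on 2 different arrays, each time together with another RNA in the other dye. The arrays were custom oligonucleotide arrays of 1040 spots, printed as 520 neighbouring duplicate pairs. Columns of saline strips held values for 334 to 575 spots and those of carbachol strips for 350 to 530, with median raw intensities of 1213 to 6042.5 and 1046 to 2784. A spot pair was tested where at least 3 animals had a value in every group of the series, which left 190 pairs, 118 of them with a value in all 10 unstretched RNA samples. Values below are normalised log2 intensities, and differences are carbachol minus saline. A log2 difference of 1 is a 2-fold difference. Of the tested pairs 6 carried a gene name and 184 did not, so that the latter are given by spot number. Precision is limited by the number of animals.

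No spot pair passed the test for a carbachol difference in unstretched strips: 0 of 190 (0%) had an adjusted p under 0.05 in limma, with 0.931 as the smallest. Without adjustment 7 of 190 (3.68%) had a p under 0.05. Of the 7, spots 733 and 734 were higher with carbachol (1 of 190, 0.526%) and 6 pairs were lower (3.16%), ITGA11 among them. Over all 190 pairs 77 differences were above 0 and 113 below, with a median of -0.034 and quartiles of -0.14 and 0.075. A 2-fold difference was exceeded by 1 pair, spots 67 and 68, and a 1.5-fold difference by 3 pairs. Fitted by themselves, animals 1 to 3 gave 0 calls and animals 4 and 5 gave 5, each over its own set of tested pairs. The fit of animals 4 and 5 had at most 3 residual degrees of freedom. In these animals the carbachol difference and array differences cannot be told apart. The 10 unstretched RNA samples without the stretched ones gave 3 calls in 194 tested pairs. The called pairs are described below.

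The intervals give the precision of the fit for each pair. The fit takes the RNA samples of an animal as independent beyond its mean level and does not model the arrays they share. The median standard error was 0.168, and the median 95% interval reached 0.357 to either side of the estimate. For 183 of the 190 pairs the whole interval lay within a 2-fold difference either way, and for 128 within 1.5-fold. The other 7 had intervals that reached a 2-fold difference, among them spots 35 and 36, 67 and 68, 531 and 532, and 537 and 538. These intervals are given pair by pair and are not adjusted for the number of pairs. Standard errors from the animals' own differences were larger for some pairs, at 0.342 against 0.221 for spots 311 and 312. For others they were smaller, at 0.106 against 0.158 for ITGA11.

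**Figure D1:**
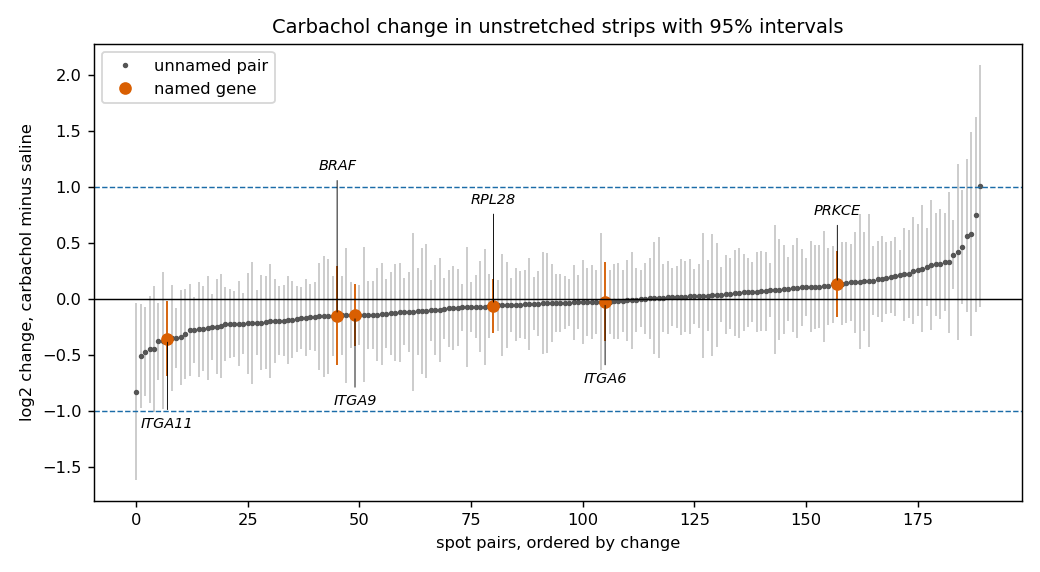
Log2 difference between carbachol and saline in unstretched strips for the 190 tested spot pairs, ordered along the horizontal axis, with 95% intervals from limma as vertical lines and dashed lines at a 2-fold difference. Named genes are in orange, and most intervals include 0.

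The integrin list held 15 genes, of which 3 were tested and 0 passed. All 3 differences were below 0, with a median of -0.14 against -0.034 over all pairs, of which 113 of 190 were below 0. Under other ways of processing, the difference of ITGA6, -0.024, changed sign in 7 of 23 alternatives. That of ITGA9 did so in 1 of 24 and that of ITGA11 in 0 of 23. ITGA11 encodes the alpha 11 subunit, which forms a receptor for fibrillar collagen with the beta 1 subunit. In saline its log2 intensity was 9.92 in animal 1, 10.60 in animal 2, 10.49 in animal 3, 10.44 in animal 4 and 10.55 in animal 5. With carbachol it was 9.18, 10.17, 10.32, 10.22 and 10.35 in the same order. ITGA11 was thus below its own control in 5 of 5 animals, while animal 1 was the lowest of both groups and the groups overlapped.

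The mean log2 intensity of ITGA11 was 10.40 ± 0.274 (SD, n = 5) in saline and 10.05 ± 0.489 (SD, n = 5) with carbachol. The difference was -0.35 ± 0.158 (SE), with a 95% interval of -0.69 to -0.020, and did not pass in limma (p = 0.0389, adjusted p = 0.931). It was -0.74 in animal 1 and between -0.43 and -0.17 in the others. An exact sign permutation test over the 5 animals gave a two-sided p of 0.0625, the smallest that 5 pairs allow. Of the 118 complete pairs 4 (3.39%) had the same direction in all 5 animals: ITGA11 was lower (0.847%), and 3 pairs were higher (2.54%), spots 67 and 68, 733 and 734, and 1015 and 1016. With directions random and independent between animals, a share of 0.0625 of pairs would have the same direction in all 5.

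ITGA9, the alpha 9 subunit, which binds tenascin and osteopontin among other ligands, ran in saline at 10.20, 10.76, 10.72, 10.94 and 10.97 in animals 1 to 5. With carbachol its log2 intensities were 10.22, 10.42, 10.95, 10.74 and 10.55. The groups overlapped over most of their range, and 3 of 5 animals were lower with carbachol. Its difference was -0.14 ± 0.130 (SE, adjusted p = 0.931 in limma), with an interval of -0.42 to 0.13.

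ITGA6, the alpha 6 subunit of laminin receptors, lacked a value for the saline strip of animal 4. Its log2 intensities in saline were 10.08, 10.53, 10.25 and 11.20 in animals 1, 2, 3 and 5, and with carbachol 9.63, 10.37, 10.43, 11.26 and 11.51 in animals 1 to 5. The spread between animals was wider than any difference within an animal, since animals 1 to 3 lay at or below 10.53 and the measured strips of animals 4 and 5 at or above 11.20 in both groups. The difference of ITGA6 was -0.024 ± 0.166 (SE, adjusted p = 0.973 in limma), with an interval of -0.38 to 0.33; 2 of 4 animals were higher and 2 lower.

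The list of receptor and kinase signalling genes held 16 genes, of which 5 were named on the array and 2, PRKCE and BRAF, were tested. Neither passed; PRKCE had a difference above 0 and BRAF below. PRKCE encodes protein kinase C epsilon, an isoform activated by diacylglycerol without calcium. Its log2 intensities were 10.57, 10.16, 10.32, 10.93 and 11.04 in saline and 11.16, 10.15, 10.73, 10.83 and 10.84 with carbachol in animals 1 to 5. Animals 1 and 3 were higher with carbachol by 0.59 and 0.41, animal 2 was level with its control at -0.0048, and animals 4 and 5 were lower, at -0.10 and -0.20, so that the direction was not shared. The difference was 0.14 ± 0.140 (SE, adjusted p = 0.931 in limma), with an interval of -0.16 to 0.43.

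BRAF encodes a serine/threonine kinase that activates MEK in the MAP kinase cascade. In saline its log2 intensity was 10.82, 11.67, 11.59, 10.83 and 11.12, and with carbachol 10.13, 11.20, 11.36, 11.14 and 11.46 in animals 1 to 5. Animals 1 to 3 were lower with carbachol and animals 4 and 5 higher. The difference over all animals was -0.15 ± 0.211 (SE, adjusted p = 0.973 in limma), with an interval of -0.59 to 0.30. Averaged within array sets it was -0.46 (animals 1 to 3) and 0.32 (animals 4 and 5), and the test of the gap between these sets, 0.78 ± 0.383 (SE), did not pass in limma (adjusted p = 0.367).

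PRKAR1A, a regulatory subunit of cAMP-dependent protein kinase, had values in 5 carbachol strips but in only 2 saline strips and was not tested. Its log2 intensity in saline was 9.75 in animal 1 and 9.72 in animal 3. With carbachol it was 9.45, 9.88, 10.30, 10.22 and 10.26 in animals 1 to 5. The difference was thus -0.30 in animal 1 and 0.58 in animal 3. The other named genes of that list, MAP3K5 and PAK3, and the genes CAV2, ACTN3, XPO7, ANAPC1 and ITCH had no RNA with values in both dyes in either group.

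RPL28, a protein of the large ribosomal subunit, had log2 intensities of 11.37, 11.26, 11.45, 11.73 and 10.86 in saline. With carbachol it was at 11.30, 11.46, 11.36, 11.25 and 11 in animals 1 to 5. Except in animal 4, at -0.48, the differences lay between -0.10 and 0.21, and the groups overlapped. Its difference of -0.06 ± 0.115 (SE, adjusted p = 0.973 in limma) had the narrowest interval of the named genes, -0.30 to 0.18. The lists of 8 inflammatory and 7 contractile genes had 0 members with a name on the array.

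**Figure D2:**
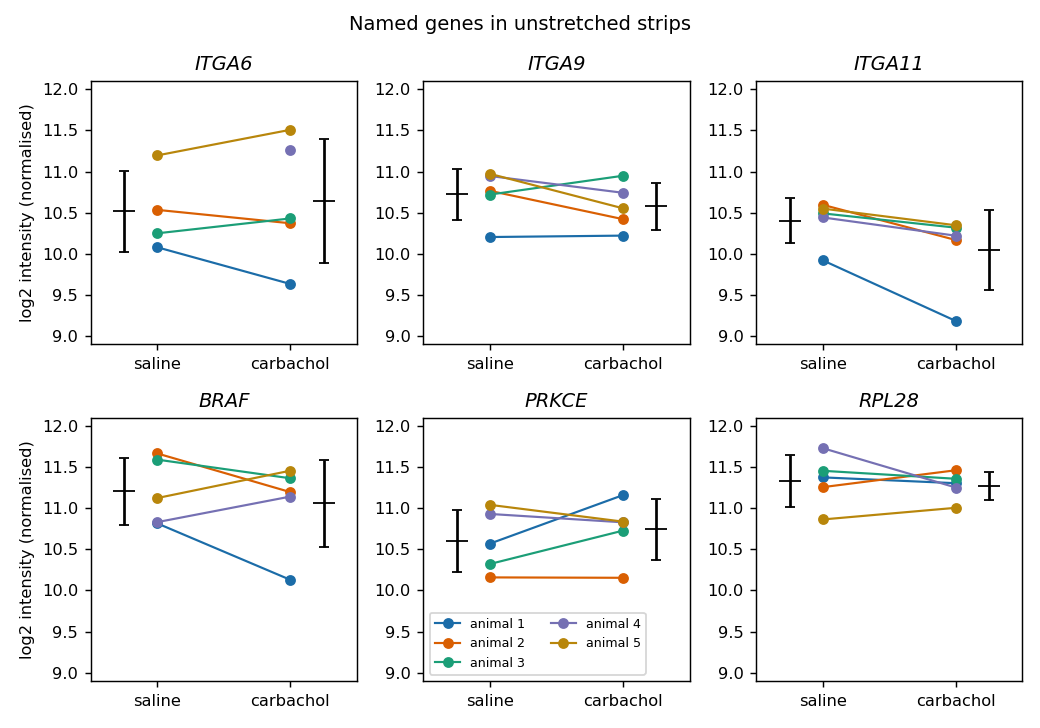
Normalised log2 intensity of the 6 tested named genes in unstretched strips in saline and in carbachol, with lines joining strips of the same animal and bars at the sides for mean ± SD. ITGA11 slopes downward in all 5 animals, and lines of the other genes cross or run in both directions.

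Among unnamed pairs, spots 115 and 116 had the smallest p. Their log2 intensity in saline was 11.76, 11.86, 12.02, 11.96 and 11.98, and with carbachol 11.82, 11.71, 11.33, 11.45 and 11.54 in animals 1 to 5. Animals 2 to 5 were lower with carbachol and animal 1 was higher, and its carbachol strip alone lay within the saline range. The difference was -0.35 ± 0.126 (SE, p = 0.0138, adjusted p = 0.931 in limma).

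Spots 733 and 734 were higher with carbachol in 5 of 5 animals. In saline they were at 11.04, 10.97, 10.84, 11 and 11.33, and with carbachol at 11.08, 11.29, 11.49, 11.69 and 11.61 in animals 1 to 5. The difference was 0.40 ± 0.145 (SE, p = 0.0141, adjusted p = 0.931 in limma), a fold of 1.32. Measured with Cy3 alone it was 0.39 and with Cy5 alone 0.40, and each dye gave a higher value in all 5 animals. In stretched strips the same pair differed by 0.10 ± 0.145 (SE), and the interaction, -0.30 ± 0.205, did not pass (adjusted p = 0.851).

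Further pairs with an unadjusted p under 0.05 were lower with carbachol. Spots 653 and 654 differed by -0.47 ± 0.188 (SE), and were lower in 4 of 4 animals with values in both dyes. Animal 4, for which only Cy3 gave a difference, was at 1.33, and Cy3 alone gave -0.048 over the 5 animals. Spots 981 and 982 differed by -0.38 ± 0.161, with 0.15, -0.48, -0.997 and -0.27 in animals 1, 2, 3 and 5, and by -0.19 without animal 3. Spots 311 and 312 differed by -0.51 ± 0.221 and were lower in 4 of 5 animals. For spots 311 and 312 animals 1 to 3 averaged -0.17, and animals 4 and 5 averaged -1.01. Of the remaining pairs among the 10 smallest p values, spots 319 and 320 differed by -0.45 ± 0.227 (SE), with -1.01, -1.03 and -0.18 in animals 1 to 3 and -0.25 and 0.23 in animals 4 and 5, and spots 105 and 106 by -0.27 ± 0.141. The latter were at -0.44, 0.24, -0.29, -0.83 and -0.051 in animals 1 to 5, and at -0.13 without animal 4.

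The lowest difference of all, -0.83 ± 0.370 (SE, p = 0.041, adjusted p = 0.931 in limma), belonged to spots 537 and 538 and rested on 1 array. In saline they were at 9.76, 10.37, 12.30 and 10.54 in animals 1, 2, 3 and 5, and with carbachol at 9.63, 9.93, 9.89, 10.21 and 10.19 in animals 1 to 5. Only the saline strip of animal 3 stood apart. On array 3 that strip read 14.30 in Cy5 and its array partner, the stretched carbachol strip of animal 3, read 14.90 in Cy3, whereas the same saline strip read 10.30 on array 5 and the other columns with a value lay between 9.47 and 10.92. Without animal 3 the difference was -0.30.

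The highest difference, 1.01 ± 0.512 (SE, p = 0.0646, adjusted p = 0.931 in limma), belonged to spots 67 and 68, with an interval of -0.068 to 2.09. In saline they were at 12.52, 10.88, 11.86, 12.08 and 13.05, and with carbachol at 12.89, 10.97, 12.30, 14.36 and 14.92 in animals 1 to 5. All 5 animals were higher with carbachol, by 0.37, 0.093 and 0.44 in animals 1 to 3 and by 2.29 and 1.87 in animals 4 and 5. The latter came out in both dyes, at 1.99 and 2.58 in animal 4 and at 0.70 and 3.05 in animal 5 for Cy3 and Cy5. In animal 3 the dyes had opposite signs, at 1.11 and -0.22, and log ratios along a chain of shared arrays gave -0.41 there, so that the direction of that animal was not settled. Spots 35 and 36 were alike in this, at 0.38, 0.35 and -0.28 in animals 1 to 3 and at 1.78 and 1.52 in the other two, with a difference of 0.75 ± 0.413 (SE, adjusted p = 0.931).

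The gap between the sets of animals was 1.78 ± 0.817 (SE) for spots 67 and 68 and 1.50 ± 0.726 for spots 35 and 36, and neither passed in limma (adjusted p = 0.367 for each). Both pairs are higher in stretched than in unstretched saline strips, by 3.13 ± 0.512 and 2.32 ± 0.413 (SE), a comparison that shares the unstretched saline strips. In animals 4 and 5 the carbachol strip shared both its arrays with the stretched saline strip, which read 15.00 and 15.45 for spots 67 and 68. The saline strip shared both its arrays with the stretched carbachol strip, at 14.56 and 15.32, and differed from it by -2.48 and -2.27. Whether the array partner had a part in the carbachol value was not tested. Next highest were spots 531 and 532, at 0.58 ± 0.432 (SE), which ranged from -0.75 in animal 2 to 2.23 in animal 4. The 2 remaining pairs chosen for their known response to stretch had differences of 0.42 ± 0.372 and, for spots 7 and 8, of 0.16 ± 0.279 (SE). The former was 1.39 in animal 4 and between -0.15 and 0.32 in the others, and 0.18 without animal 4.

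The strips of animals 1 to 3 occupied arrays 1 to 12, and those of animals 4 and 5 occupied arrays 13 to 20, so that array set and animal cannot be told apart. The carbachol difference itself differed between these sets for 2 of 118 complete pairs (1.69%) at an adjusted p under 0.05 in limma, and 15 of 118 (12.7%) had an unadjusted p under 0.05. Spots 533 and 534 were at 12.49, 12.05, 12.19, 12.94 and 12.80 in saline and at 12.64, 12.56, 12.12, 11.93 and 11.82 with carbachol. The differences were -1.01 and -0.98 in animals 4 and 5, while animals 1 to 3 gave 0.15, 0.52 and -0.066. The gap between sets was -1.19 ± 0.273 (SE, adjusted p = 0.0496 in limma).

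Spots 901 and 902 were at 11.98, 11.13, 11.62, 12.74 and 12.38 in saline and at 12.81, 11.92, 11.75, 11.94 and 11.63 with carbachol. The differences were 0.84, 0.79 and 0.12 in animals 1 to 3 and -0.81 and -0.75 in animals 4 and 5, a gap of -1.36 ± 0.321 (SE, adjusted p = 0.0496 in limma). For this pair the array partners of animals 4 and 5 read nearly the same: the carbachol strips differed from the stretched saline strips on their arrays by -0.018 and -0.17, and the saline strips from the stretched carbachol strips on theirs by 0.11 and 0.048. For spots 533 and 534 they did not, since the carbachol strips differed from their partners by -0.92 and -1.01. Both calls were lost without animal 1, 2, 4 or 5 (0 called) and held without animal 3 (2 called).

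**Figure D3:**
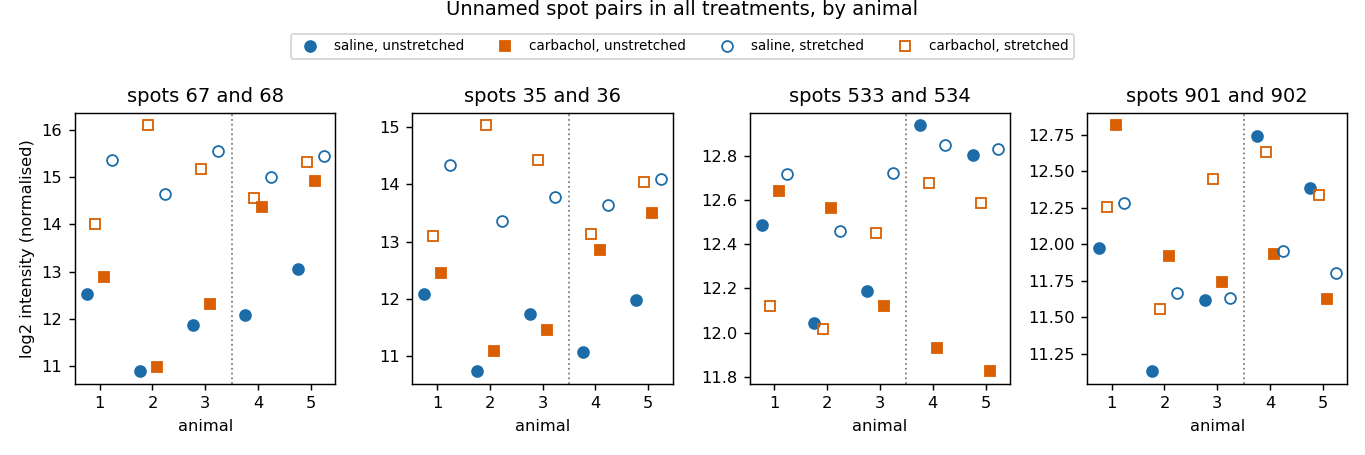
Normalised log2 intensity of 4 unnamed spot pairs in all 4 treatments, by animal; filled symbols are unstretched and open symbols stretched strips, and the dotted line parts animals 1 to 3 from animals 4 and 5. For spots 67 and 68 and spots 35 and 36 the filled squares lie far above the filled circles in animals 4 and 5, and for spots 533 and 534 and spots 901 and 902 below them.

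How well the difference could be measured within an animal was read from its 2 labellings, since the Cy3 and the Cy5 columns of a carbachol and saline pair lay on different arrays. Across tested pairs the differences from Cy3 and from Cy5 correlated at 0.705 in animal 1, 0.194 in animal 2, 0.0854 in animal 3, 0.459 in animal 4 and 0.294 in animal 5 (129 to 189 pairs, which are not independent replicates and share the columns). The labellings had opposite signs for 14.3%, 43.6%, 52.9%, 35.7% and 50% of pairs in animals 1 to 5. In animal 1 the differences had an SD over pairs of 0.416, against 0.182 for the distance of each dye from the mean of both. In animal 3 these were 0.523 and 0.487.

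The named genes showed this too. For ITGA11, Cy3 gave -1.10 and Cy5 0.76 in animal 3, and 0.20 and -1.05 in animal 2. For BRAF they gave -1.14 and 0.69 in animal 3, and for PRKCE -0.21 and 1.02. In animals 2, 3 and 5 the dyes disagreed in sign for 5 of 6 named genes, in animal 1 for 2 of 6 and in animal 4 for 1 of 5. Over the 5 animals ITGA11 averaged -0.52 from Cy3 and -0.18 from Cy5, with 4 and 3 animals lower.

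**Figure D4:**
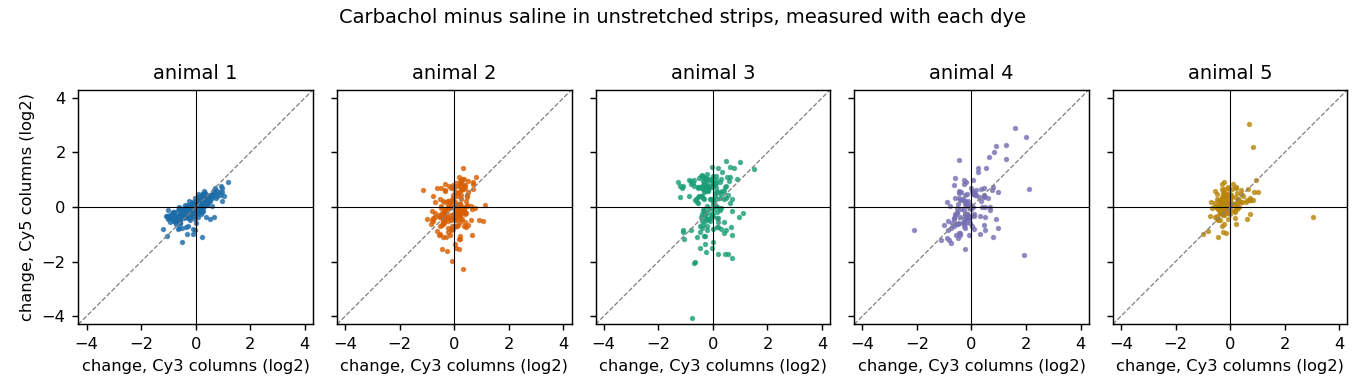
Log2 difference between carbachol and saline in unstretched strips from the Cy3 columns (horizontal) and from the Cy5 columns (vertical), 1 panel per animal and 1 point per tested spot pair, with a dashed line of equality. Points follow the line in animal 1 and form a cloud in animals 2 and 3.

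Between animals, the differences correlated from -0.459 (animals 2 and 4) to 0.507 (animals 4 and 5) over the 10 pairs of animals, with a mean of -0.0045. Animals 1 and 3 gave -0.344. Animals 4 and 5 thus resembled each other, and both were on the later arrays. In single animals 2-fold differences were found for 3 pairs in animal 1, 1 in animal 2, 9 in animal 3, 13 in animal 4 and 3 in animal 5. Both dyes exceeded 2-fold in the same direction for 1, 0, 2, 5 and 0 of these pairs.

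Before loess correction and scaling, the median log2 difference over tested pairs was 0.13, -0.24, -0.33, -0.21 and -1.06 in animals 1 to 5. After both steps it was -0.11, -0.065, 0.095, -0.057 and 0.031. The scaling sets a common level for all arrays, so that a shift of all transcripts together could not be read. Animal 5 had the largest shift, and its saline strip gave the brightest column of both groups.

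Carbachol was also compared with saline in stretched strips of the same animals, which are other RNA samples. There 0 of 190 pairs (0%) passed in limma, with 15 (7.89%) at an unadjusted p under 0.05. The difference between stretch states, tested as an interaction, passed for 0 of 190 pairs (0%), with 9 (4.74%) at an unadjusted p under 0.05, and its median standard error was 0.241. ITGA11 had 0.23 ± 0.158 (SE) in stretched strips, and its interaction of 0.58 ± 0.223, with an interval of 0.11 to 1.05, did not pass (adjusted p = 0.696 in limma). In stretched strips ITGA11 was at 1.08, 0.013, -0.22, 0.30 and -0.017 in animals 1 to 5. Animal 1 thus had the largest difference in both states, with -0.74 in unstretched strips. Arrays shared between the 2 states are not part of this fit. BRAF had 0.42 ± 0.211 in stretched strips and an interaction of 0.57 ± 0.299 (adjusted p = 0.819), and PRKCE 0.22 ± 0.140 and 0.081 ± 0.199 (adjusted p = 0.956). The interactions of RPL28, ITGA6 and ITGA9 were 0.31 ± 0.162, 0.26 ± 0.240 and 0.13 ± 0.184, and none of them passed.

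Averaged over animals, the differences in both stretch states correlated at -0.0783 across 190 pairs. Within each animal the correlation was below 0, at -0.621, -0.214, -0.426, -0.663 and -0.410 in animals 1 to 5. The samples behind these points share arrays. In animals 4 and 5 the unstretched carbachol strip was always hybridised with the stretched saline strip, and the unstretched saline strip with the stretched carbachol strip, so that a deviation of an array enters these differences with opposite signs. In animal 1 the carbachol strip was likewise hybridised only with the stretched saline strip. In these 3 animals the carbachol difference in unstretched strips and array differences cannot be told apart. The median distance between array partners was 0.147 and 0.152 in animal 4 and 0.140 and 0.125 in animal 5 for the carbachol and the saline strip, against a median size of the carbachol difference of 0.338 and 0.169. These sizes are not on equal terms. The distance between partners is a log ratio within arrays, which the loess correction centres on 0, and the carbachol difference in these animals is taken between arrays.

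**Figure D5:**
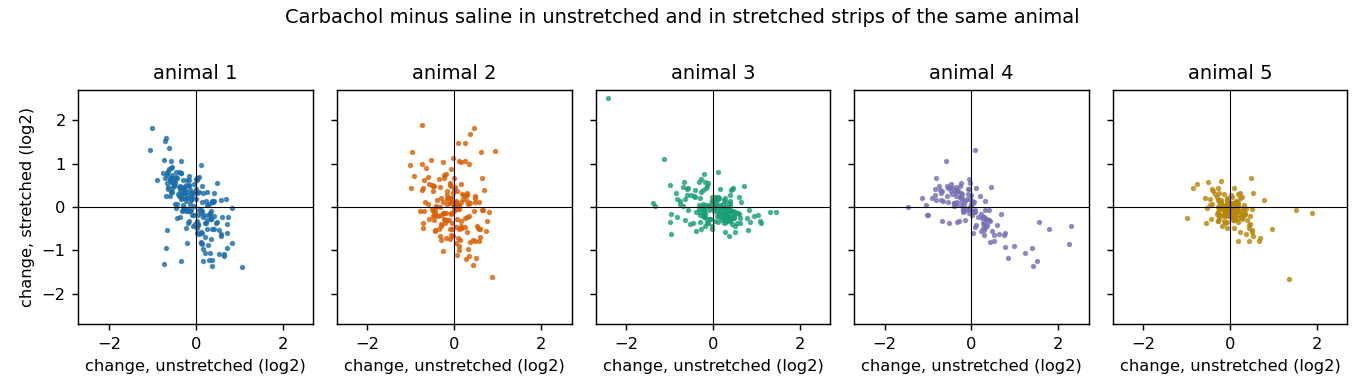
Log2 difference between carbachol and saline in unstretched strips (horizontal) and in stretched strips of the same animal (vertical), 1 panel per animal and 1 point per tested spot pair. The clouds slope downward most clearly in animals 1 and 4.

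In animals 2 and 3 the carbachol and the saline strip were linked through a chain of arrays with RNA samples in common, and the difference was recomputed from log ratios within arrays alone. The chains ran through stretched strips and strips of other animals, and errors of several arrays add up along them. No standard error was computed for the chain values, so that changes of sign were not tested. ITGA11 was then -0.30 in animal 2 and -0.031 in animal 3, against -0.43 and -0.17 before. BRAF was -0.51 and 0.19, against -0.47 and -0.23, and PRKCE 0.073 and 0.69, against -0.0048 and 0.41. Spots 537 and 538 turned from -2.41 to 0.24 in animal 3. Spots 733 and 734 were 0.14 and 0.21, against 0.32 and 0.66. ITGA11 was below 0 and spots 733 and 734 above 0 in both animals in either computation. Other pairs turned: RPL28 was -0.24 and 0.10, against 0.21 and -0.10, and ITGA6 was 0.17 and -0.14, against -0.16 and 0.18. ITGA9 was 0.070 and 0.079, against -0.34 and 0.23, so that animal 2 turned. For spots 67 and 68 the value of animal 3 was -0.41, against 0.44. The chain of animal 3 included the stretched carbachol strip of animal 1, which read 12.52 on array 6 and 15.48 on array 12 for these spots.

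The groups were also compared for whether a spot pair could be measured at all. Of 520 pairs, 201 had no value in any RNA of either group and 118 had values in all 10. No pair had values in at least 3 carbachol strips and in 0 saline strips, and none the reverse. Of the 319 pairs with any value, 184 had values in equally many strips of both groups. The counts differed by 2 or more for 39 pairs and by 3 or more for 11, by at most 4. PRKAR1A, with 5 carbachol and 2 saline strips, was 1 of these 11. A blank is shared by both channels of an array, so that it reflects the array partner as well as the strip. In 1 of 190 pairs (0.526%) the groups did not overlap: spots 569 and 570 lay at 10.30 to 10.70 in 4 saline strips and at 10.20 to 10.23 in 3 carbachol strips, a difference of -0.23 ± 0.152 (SE, p = 0.161).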

How the data were processed

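Intensity values were deposited as 1 linear-scale column per dye channel, and 57.4% of all cells were blank. RNA amplification, per the labels' protocols, used amino allyl nucleotides. The dyes Cy3 and Cy5 were then coupled to it. Not given in the sources used here were the scanner, image software, background treatment and the rule for blanks.

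Values were taken to log2 with no pseudocount, and log ratios were loess-corrected within arrays (span 0.4, 4 iterations). Arrays were shifted by their median deviation over 193 spots measured on all arrays. Duplicate spots and then both dyes of an RNA were averaged. All 20 RNA samples entered a fit in limma 3.58.1 (lmFit, eBayes; R 4.3.3), with the 4 treatments as levels and the animal as a fixed block. P values were two-sided and adjusted by Benjamini-Hochberg over 190 pairs. The gap between array sets was tested by treatment-by-set terms over 118 pairs. The fit was tested on simulated data with independent errors around animal effects. That simulation held no arrays or dyes, so that it cannot show how shared arrays act on the fit. Statmod 1.5.0 gave block correlations, and matplotlib 3.10.9 under Python 3.11.15 the plots.

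Strips were paired by animal because the labels give every animal all 4 treatments. Deviations of the saline and the carbachol strip of an animal from their group means correlated at 0.272 to 0.751 over 118 pairs, and 3 of 5 saline strips correlated best with the carbachol strip of their own animal.

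Gene names came from the platform annotation, which can be old. It covers 30 spots, in 15 pairs, of 14 genes; all 30 matched a current gene number. Named in the text are tested pairs with a gene name, PRKAR1A, the 10 smallest p values and the 3 highest and 3 lowest differences. Also named are pairs past a threshold and 4 pairs that earlier results of these data gave for stretch. Spots 569 and 570, 925 and 926, and 1015 and 1016 were chosen after their values were seen. The pairs, lists and tests were chosen with earlier results of these data known. Probe positions and sequences were not used here.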

Additional observations from a re-analysis of the deposited data

Results flagged for a closer look

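Among 63 groups of 4 or 5 values (saline, carbachol or difference) of the pairs named above, 6 held an extreme value by Dixon's test at 95%, which picks about 1 in 20 groups by chance. Animal 1 accounted for 5 of them. In carbachol its BRAF value was 10.13, against 11.14 for the next strip. Its ITGA11 value was 9.92 in saline, against 10.44 for the next strip, and 9.18 in carbachol, against 10.17. Also in carbachol, spots 319 and 320 were at 9.40 in animal 1, against 10.67, and spots 901 and 902 at 12.81, against 11.94. In animal 3 the difference of spots 537 and 538 was -2.41, against -0.44 for the next animal.

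The carbachol difference of animals 4 and 5 differed from that of animals 1 to 3 by -1.19 for spots 533 and 534 and by -1.36 for spots 901 and 902 in a test of the gap itself. Array set and animals cannot be told apart in it.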

How the results depend on the processing

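The count of 0 carbachol differences became 3 of 194 when only the 10 unstretched RNA samples were fitted (spots 67 and 68, 35 and 36, and 537 and 538). It became 5 in animals 4 and 5 alone, over their own set of tested pairs. With 40 channels and the array as a random block it became 1 (spots 115 and 116 at -0.37), which counts both labellings of an RNA. In the fit of 10 samples limma drew nearly all pairs to a common spread: the standard error of spots 67 and 68 was 0.203, against 0.444 from its own 5 animals. In animals 4 and 5 alone the carbachol differences that passed were those of spots 67 and 68 at 2.08, 35 and 36 at 1.65, 533 and 534 at -0.99, 925 and 926 at -0.79, and 901 and 902 at -0.78, of opposite sign to the 0.038 over all animals. The interaction count of 0 also became 5 in these animals, again over their own set of tested pairs. Without the replicate block 0 pairs passed for carbachol and 0 for the interaction, and the 2 calls for array sets became 0. They also became 0 under median centring, quantile normalization, unscaled values, Cy3 alone and Cy5 alone, and 0 to 2 passed when each animal was left out. Quantile normalization and the unscaled values both started from log2 intensities without the loess correction, so these 2 alternatives changed more than the scaling. The median difference moved to -0.34 in unscaled values and to -0.13 with Cy3 alone. Of 495 results for 21 named pairs, 8 passed and 31 changed sign, and 0 of the 6 named genes passed in any. ITGA11 kept its sign in 23 of 23 alternatives and spots 733 and 734 in 24 of 24. These alternatives reuse the same strips and arrays. By mean intensity ITGA11 was among the dimmest 25% of tested pairs, and so is missing from the alternative without them. Chains of shared arrays cover animals 2 and 3 alone and have no standard error. Their means lay on the other side of 0 from the value over all animals for spots 67 and 68 (-0.085), 105 and 106 (0.13), 7 and 8 (-0.075) and 533 and 534 (0.34), ITGA9 (0.074) and ITGA6 (0.016). The cause of the other shifts was not tested. Signal over background is unknown.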

Other observations

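In all, 45 spots of 33 pairs were measured almost exclusively on the later arrays, that is on 7 or 8 of the 8 arrays of animals 4 and 5 and on 0 or 1 of the other 12. In animal 5 the carbachol strip was higher than its saline control for 32 of these 33 pairs after scaling, with a median log2 difference of 0.50, against 0.031 over the tested pairs. In animal 4 it was higher for 11 and lower for 22, with a median of -0.17. Before loess correction and scaling the medians were -0.54 in animal 5 and -0.18 in animal 4. None of the 33 pairs carries a gene name in the annotation used here.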
